A study of Mus musculus with 2 samples.

Results

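The brush border is the apical face of the absorptive enterocyte, and 41 genes of its machinery were compared in small intestine between mice transgenic for the cytokine IL-9 and wild-type mice. The genes were chosen by function, with earlier results of these data known. They are 14 hydrolases of the apical membrane, 21 transporters of sugars, peptides, amino acids, vitamins, nucleosides and monocarboxylates, and 6 genes of microvillus structure. Of the 41 genes, 38 had a probe set (a group of short probes against one transcript) that carries their symbol alone, among 18194 genes so named on the arrays. Each group was 1 Affymetrix mouse array hybridised with RNA pooled from 3 mice of 6 to 8 weeks: small intestine of mice carrying an IL-9 transgene, and small intestine of wild-type mice, both in a balb/c background and untreated. The labels name neither the promoter that drives the transgene nor the segment of small intestine that was taken. With 1 array per group there is no spread between replicates, so no difference below has a replicate check and no p-value is given.

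Digestion of nutrients ends at the microvilli. Disaccharidases and peptidases anchored in the apical membrane release monosaccharides, amino acids and short peptides, and solute carriers (the Slc families) beside them take these products into the cell. A second set of carriers on the basolateral side passes them on to the blood. Microvilli are held up by bundles of actin with villin and ezrin, and are linked at their tips by protocadherins. In mice, lactase is high in the suckling period, whereas sucrase-isomaltase and trehalase come on around weaning.

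Values are intensities on a linear scale, and differences are transgenic minus wild type of log2(intensity + 1), which understates the difference of dim genes. Genes were kept where at least 1 of the arrays gave a log2 value of 6.31 or more, the overall median, and 11862 genes met this filter. Over these, the median difference was 0.01 and 95% of genes lay between -0.49 and 0.50. Between probe sets of one gene, the SD of the log2 difference was 0.23 over 4965 genes, and 0.21 over 580 genes whose probe sets had a mean intensity of at least 1000. It is a technical yardstick and holds no spread between animals. The 3′ to 5′ intensity ratio of the actin control probe sets, a sign of RNA integrity, was 1.33 in transgenic and 1.61 in wild-type RNA, and for the Gapdh controls the ratio was 1.08 in transgenic and 1.22 in wild-type RNA. Il9 read 62.2 in transgenic and 71.6 in wild-type intestine, both below the filter, and it is not known from the labels whether the transgene's transcript would meet these probes, so the reading does not check the labels.

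Most brush border genes differed little between the pools. Of the 38 genes, 37 passed the filter, 36 of them on both arrays, and Slc5a6 on the transgenic array alone. At 2-fold, 0 of 37 members were higher in the transgenic pool and 1 was lower, Tmigd1, against a background of 0.607% of all genes higher and 0.202% lower. At 1.3-fold (0.38 in log2), 3 members were higher (8.11%) and 4 were lower (10.8%), against 5.5% of all genes higher and 5.24% lower. The 3 were Slc1a1, Slc2a5 and Slc19a3, and the 4 were Tmigd1, Mep1a, Slc43a2 and Slc7a8. Under quantile normalization 2 members were higher by 1.3-fold and 5 were lower, because Slc19a3 dropped under that size and Treh passed it. Of the 37 members 25 lay below 0, against 47.6% of all genes, and the members' median was -0.10. In bright genes alone, with a mean intensity of at least 1000, 22 of 30 members lay below 0 (73.3%), against 51.7% of the 2275 genes of that brightness, a comparison added after the values were seen. In whole tissue, fewer enterocytes and less RNA per enterocyte cannot be told apart. For 19 of the 37 members the difference was smaller than 0.23, the SD between a gene's probe sets.

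**Figure D1:**
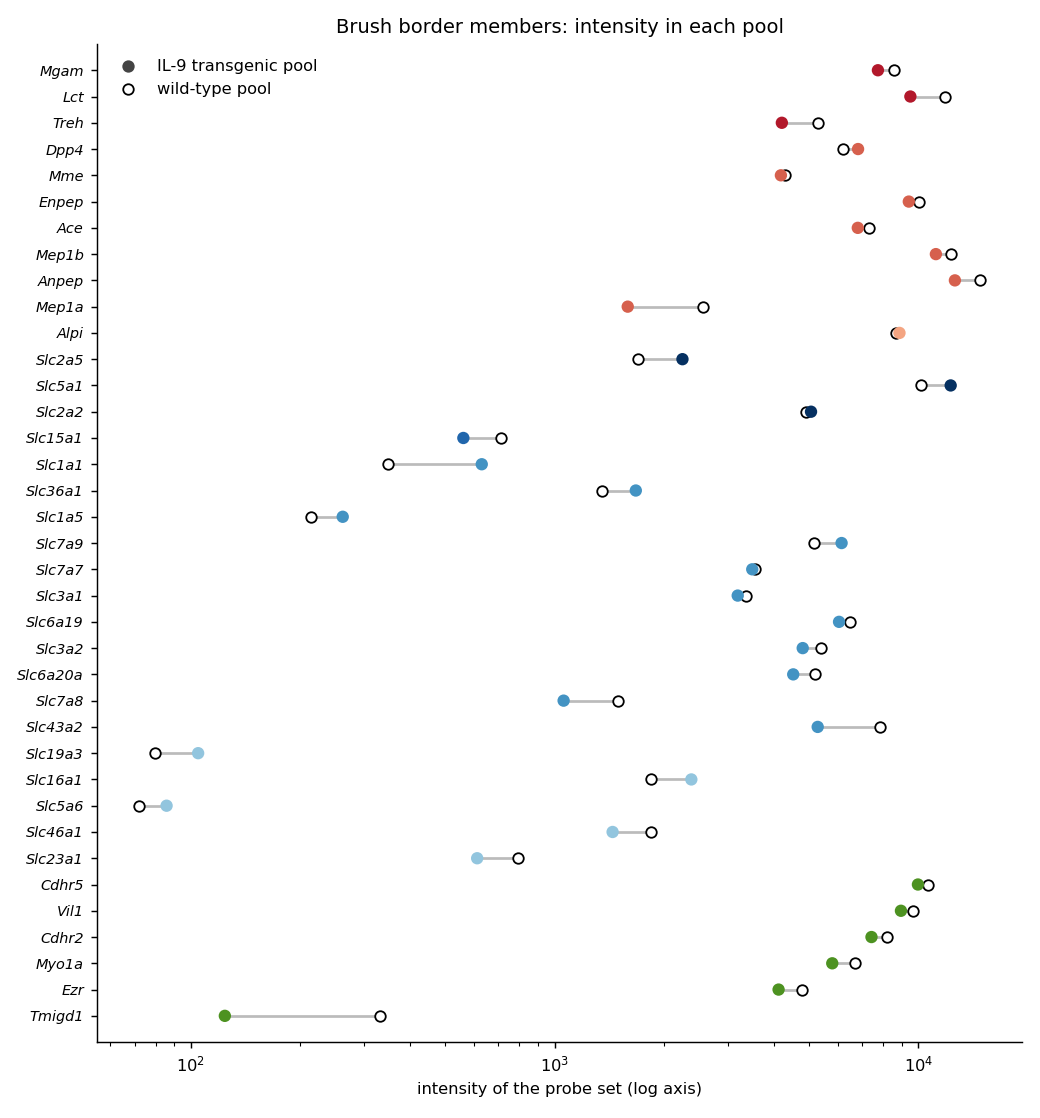
Intensity (log axis) of the 37 members past the filter in the transgenic pool (filled, coloured by role as in the plot of differences) and the wild-type pool (open), 1 array each, with no error bars because there are no replicates. Most pairs of points nearly touch, and the widest gap is that of Tmigd1, at 124 in transgenic and 331 in wild-type intestine.

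The disaccharidases read slightly lower in the transgenic pool, each by less than 1.3-fold. Lct, lactase, which splits milk sugar, read 9499.9 in transgenic and 11847 in wild-type intestine (-0.32). Treh, trehalase, which splits the disaccharide trehalose, read 4211 in transgenic and 5307 in wild-type intestine (-0.33). Mgam, maltase-glucoamylase, which completes starch digestion, read 7736 in transgenic and 8559 in wild-type intestine (-0.15). All 3 lay below 0, and their median of -0.32 ran from -0.34 to -0.32 over the processing alternatives. The alternatives for probe sets and filter could not move it, because each gene has 1 probe set, far above the filter. Lct and Treh differed by more than the SD between probe sets and Mgam by less, and each has a single probe set, so none has a second reading on these arrays. Sis, sucrase-isomaltase, has no probe set of 1 symbol in the annotation used and was not analysed here.

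Because these 3 disaccharidases lay on the same side of 0, the 300 bases around their RefSeq start sites (250 before and 50 after, GRCm38.p6, printed 5′ to 3′ on the gene's strand) are shown. The windows are chr1:128328269-128328568 on the minus strand for Lct, chr9:44672983-44673282 on the plus strand for Treh and chr6:40628581-40628880 on the plus strand for Mgam. Capitals mark, on either strand and allowing overlaps, the letters of 5 motifs. The general promoter element TATAAA is the TATA box. The other motifs belong to regulators known in enterocytes: AGATAA to the GATA factors, GTTAAT to HNF1 as a half-site, CAAAGTCCA to HNF4, and TTTATNG to the CDX factors.
Lct: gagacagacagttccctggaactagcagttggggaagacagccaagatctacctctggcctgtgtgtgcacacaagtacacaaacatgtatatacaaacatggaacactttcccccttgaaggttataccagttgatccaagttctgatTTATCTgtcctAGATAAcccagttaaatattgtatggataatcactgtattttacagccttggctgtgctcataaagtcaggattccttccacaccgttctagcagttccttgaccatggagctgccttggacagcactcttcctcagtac
Treh: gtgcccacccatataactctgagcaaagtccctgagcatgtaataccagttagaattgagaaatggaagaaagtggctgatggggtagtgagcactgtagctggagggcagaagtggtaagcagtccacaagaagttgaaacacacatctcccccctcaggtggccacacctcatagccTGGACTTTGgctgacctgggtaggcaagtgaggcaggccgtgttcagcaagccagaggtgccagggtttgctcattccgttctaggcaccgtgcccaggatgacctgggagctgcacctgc
Mgam: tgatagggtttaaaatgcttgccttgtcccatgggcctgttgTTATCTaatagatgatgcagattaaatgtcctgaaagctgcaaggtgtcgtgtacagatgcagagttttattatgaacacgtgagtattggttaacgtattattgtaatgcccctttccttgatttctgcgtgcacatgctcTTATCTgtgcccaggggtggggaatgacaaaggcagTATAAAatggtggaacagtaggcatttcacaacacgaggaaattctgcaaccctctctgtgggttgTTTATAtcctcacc
The Lct window holds AGATAA on both strands, with first bases 101 and 90 bases before the start. In the Treh window the CAAAGTCCA letters stand on the opposite strand, 71 bases before the start. The Mgam window holds TATAAA 30 bases before the start and, on the opposite strand, 37 bases after it, and AGATAA on the opposite strand 208 and 66 bases before it. None of the 5 motifs is in all 3 windows, and AGATAA is in those of Lct and Mgam. Over all 32851 promoters in the table, AGATAA was found in 11.2%, TATAAA in 13.6%, GTTAAT in 7.10%, TTTATNG in 10.9% and CAAAGTCCA in 0.475%. Of the 41 members, 38 have a promoter in the table. AGATAA was found in 9 of these 38 genes, against 12.7% of all 27025 genes, and TATAAA in 9, against 15.7%. GTTAAT and TTTATNG were each found in 8 members, against 8.24% of all genes for GTTAAT and 12.5% for TTTATNG, and CAAAGTCCA in 3, against 0.555%. The motifs were chosen after the values were seen. A match to these letters is a description of the window and shows no binding.

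Among the peptidases, Mep1a stood apart from its partner Mep1b. The 2 genes encode the subunits of meprin, a metalloprotease of the apical membrane, with Mep1a coding for the alpha chain. Mep1a read 1588 in transgenic and 2557 in wild-type intestine, 1.61-fold lower (-0.69), and its second probe set read 1058 and 1831 in the same order (-0.79). Mep1b read 11165 in transgenic and 12282 in wild-type intestine (-0.14), less than the SD between probe sets. The Mep1a window (chr17:43502724-43503023, minus strand) is shown with the same marking, because this gene had the largest difference among the hydrolases, and it holds TTTATNG 14 bases after the start.
Mep1a: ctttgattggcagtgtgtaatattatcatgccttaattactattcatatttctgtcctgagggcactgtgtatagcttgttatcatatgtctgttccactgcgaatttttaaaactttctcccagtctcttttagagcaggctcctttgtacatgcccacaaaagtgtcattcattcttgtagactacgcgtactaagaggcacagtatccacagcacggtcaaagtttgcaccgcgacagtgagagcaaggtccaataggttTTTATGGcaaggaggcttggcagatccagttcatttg

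By their brightest probe set, the other peptidases differed by less than 1.3-fold. Anpep, aminopeptidase N, which trims neutral residues from the ends of peptides, read 12593 in transgenic and 14795 in wild-type intestine (-0.23). Enpep, aminopeptidase A, which removes acidic residues, read 9407 and 10031 in the same order (-0.09). Ace, the angiotensin-converting enzyme, which is also a peptidase of the brush border, read 6811 in transgenic and 7299 in wild-type intestine (-0.10), with its second probe set at -0.19. These 3 genes lay below 0. Mme, neprilysin, a metallopeptidase, had probe sets at -0.04 and 0.24, and Dpp4, which removes dipeptides next to proline, had 4 between -0.43 and 0.28, so no direction is given for either. For Dpp4 the probe set chosen read 6822 in transgenic and 6219 in wild-type intestine (0.13). Tmprss15, enteropeptidase, the duodenal activator of trypsinogen, read 19.7 in transgenic and 22.8 in wild-type intestine, below the filter on both arrays. Alpi, intestinal alkaline phosphatase, read 8867 in transgenic and 8686 in wild-type intestine (0.03, and -0.0012 under quantile normalization). Ggt1, a gamma-glutamyltransferase, has no probe set of 1 symbol and was not analysed here.

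By their brightest probe sets the sugar transporters lay above 0, the opposite side from the disaccharidases. Slc2a5, the apical fructose carrier GLUT5, read 2245 in transgenic and 1692 in wild-type intestine, 1.33-fold higher (0.41), on its only probe set. Slc5a1, the sodium-coupled glucose carrier SGLT1, read 12259.8 in transgenic and 10170.1 in wild-type intestine (0.27), but its second probe set lay at -0.12, so its direction is not settled. Slc2a2, the basolateral carrier GLUT2, read 5065 in transgenic and 4899 in wild-type intestine (0.05, or 0.0016 under quantile normalization). Their median was 0.27 and went down to 0.07 with the mean over probe sets, and of the 3 the fructose carrier alone was past 1.3-fold. Slc15a1, the proton-coupled peptide carrier PEPT1, read 561 in transgenic and 709.8 in wild-type intestine (-0.34).

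The amino acid transporters lay on both sides of 0, from -0.57 to 0.85. Of 11 members, 1 was higher by 1.3-fold, 2 were lower, and 4 lay above 0 and 7 below, around a median of -0.08. Slc1a1, the apical carrier of glutamate and aspartate (EAAC1), read 630.3 in transgenic and 349 in wild-type intestine, 1.80-fold higher (0.85). Its other probe sets read 410.3 in transgenic and 188 in wild-type intestine (1.12), and 212 in transgenic and 76.3 in wild-type intestine (1.46). The last of these passed the filter through the transgenic array alone. All 3 probe sets of Slc1a1 lay above 0, and the one with the smallest difference stands for the gene here. The start of Slc1a1 (chr19:28834885-28835184, plus strand) is shown because this gene had the largest positive difference of all members, and none of the 5 motifs is in this window, which says only that these letters are not there.
Slc1a1: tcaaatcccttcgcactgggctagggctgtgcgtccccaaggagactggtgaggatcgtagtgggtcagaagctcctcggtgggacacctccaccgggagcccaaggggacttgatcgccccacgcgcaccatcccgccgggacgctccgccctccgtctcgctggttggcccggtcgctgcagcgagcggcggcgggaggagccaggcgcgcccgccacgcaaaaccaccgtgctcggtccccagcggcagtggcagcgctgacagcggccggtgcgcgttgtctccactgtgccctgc

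Both amino acid transporters that read lower by 1.3-fold are basolateral carriers of neutral amino acids. Slc43a2, the facilitated carrier LAT4, read 5284 in transgenic and 7829 in wild-type intestine (-0.57). A second probe set agreed in sign, at -0.52, while the remaining one read 303 in transgenic and 299 in wild-type intestine (0.02), and the mean over all 3 was -0.36, under 1.3-fold. Slc7a8, the light chain LAT2, read 1058 in transgenic and 1497 in wild-type intestine (-0.50), on a single probe set. Slc3a2, the heavy chain 4F2hc with which Slc7a8 and Slc7a7 form their dimers, read 4806 in transgenic and 5405 in wild-type intestine (-0.17). Slc7a7, the light chain that exports cationic amino acids, had probe sets at -0.03 and 0.21. Thus the difference of Slc7a8 was larger than that of its heavy chain, and no direction is given for Slc7a7.

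The apical amino acid carriers other than Slc1a1 stayed under 1.3-fold. Slc7a9 and Slc3a1 are the light and heavy chain of the carrier of cystine and cationic amino acids. Slc7a9 read 6147 in transgenic and 5156 in wild-type intestine (0.25), and Slc3a1 read 3185 in transgenic and 3359 in wild-type intestine (-0.08). Slc6a19, the main neutral carrier B0AT1, lay at -0.10 and -0.14 on its probe sets, and Slc6a20a, a carrier of proline, at -0.20. Slc36a1, a proton-coupled carrier of small amino acids, read 1671 in transgenic and 1346 in wild-type intestine (0.31), and Slc1a5, the glutamine carrier ASCT2, read 261 and 214 in the same order (0.28). The partners Slc7a9 and Slc3a1 lay on opposite sides of 0, Slc3a1 by less than the SD between probe sets.

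**Figure D2:**
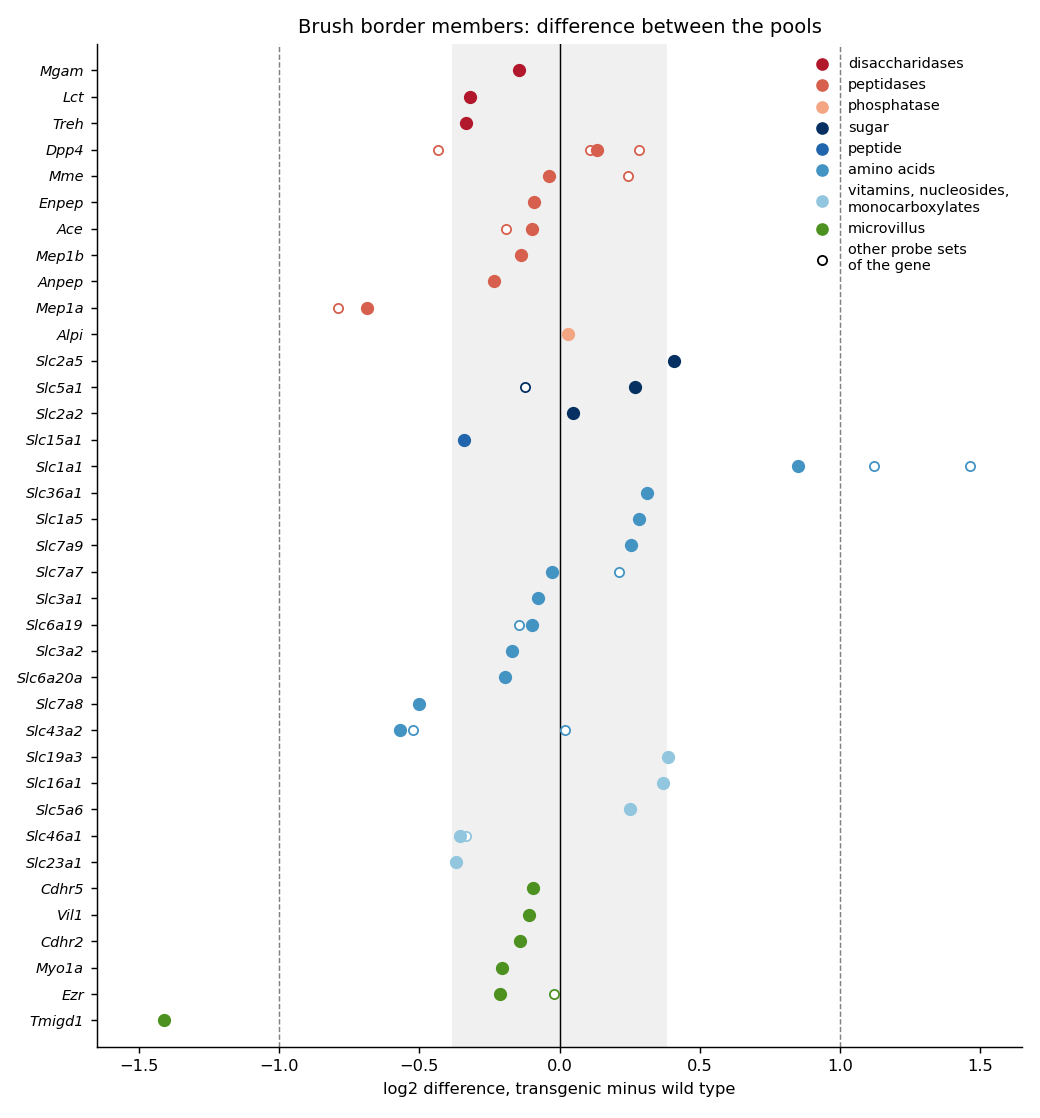
Log2 difference, transgenic minus wild type, of the 37 members past the filter, with the probe set of the highest mean filled and any other probe set past the filter open. The grey band is the range under 1.3-fold and the dashed lines mark 2-fold. Tmigd1 alone lies beyond 2-fold by its filled point, while 2 open points of Slc1a1 lie beyond it on the other side.

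Carriers of vitamins and monocarboxylates lay on both sides of 0, with small differences. Slc19a3, a thiamine carrier, read 105 in transgenic and 79.9 in wild-type intestine (0.39), close to the filter, and was under 1.3-fold with a pseudocount of 32 (0.29) and under quantile normalization (0.37). Slc5a6, the sodium-coupled carrier of biotin and pantothenate, read 85.7 in transgenic and 71.9 in wild-type intestine (0.25), and passed the filter through the transgenic array. Slc16a1, the monocarboxylate carrier MCT1, read 2375 in transgenic and 1840.1 in wild-type intestine (0.37). Slc46a1, the proton-coupled folate carrier, read 1443 in transgenic and 1845 in wild-type intestine (-0.35), with its second probe set at -0.33. Slc23a1, a sodium-coupled vitamin C carrier, read 612 in transgenic and 791 in wild-type intestine (-0.37). Of these 5 carriers 3 lay above 0 and 2 below, and only Slc19a3 passed 1.3-fold. Slc28a2, a concentrative nucleoside carrier, has no probe set of its own. A probe set shared with Slc28a2b read 3606 in transgenic and 2679 in wild-type intestine (0.43), and does not tell the 2 genes apart.

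All 6 genes of microvillus structure lay below 0, but for 5 of them the difference was smaller than the SD between probe sets. Vil1, villin, which bundles the actin core, read 8949.8 in transgenic and 9653 in wild-type intestine (-0.11). The protocadherins of the links between microvillus tips, Cdhr2 and Cdhr5, lay at -0.14 and -0.10. Myo1a, the myosin that ties the actin core to the membrane, read 5794 in transgenic and 6673 in wild-type intestine (-0.20), and Ezr, ezrin, which has the same linking role, lay at -0.21 and -0.02 on its probe sets. The exception in size was Tmigd1, an immunoglobulin-domain membrane protein of epithelia, which read 124 in transgenic and 331 in wild-type intestine, 2.66-fold lower (-1.41). Tmigd1 was past 2-fold under each of the 9 alternatives, from -1.42 to -1.22, but it rests on 1 probe set. The alternatives for probe sets and filter therefore could not move its value. Without Tmigd1 the other 5 members of the group ran from -0.21 to -0.10.

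RefSeq gives Tmigd1 a pair of start sites, and the probe set does not tell which was used, so both windows are shown with the same marking: chr11:76890870-76891169 for the upstream and chr11:76901909-76902208 for the downstream start, both on the plus strand.
Tmigd1 upstream start: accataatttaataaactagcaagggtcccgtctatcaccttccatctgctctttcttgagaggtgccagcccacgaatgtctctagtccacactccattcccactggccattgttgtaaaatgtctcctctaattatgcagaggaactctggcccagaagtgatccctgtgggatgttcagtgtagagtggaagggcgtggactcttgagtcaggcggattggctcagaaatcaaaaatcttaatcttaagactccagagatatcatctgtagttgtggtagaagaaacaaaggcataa
Tmigd1 downstream start: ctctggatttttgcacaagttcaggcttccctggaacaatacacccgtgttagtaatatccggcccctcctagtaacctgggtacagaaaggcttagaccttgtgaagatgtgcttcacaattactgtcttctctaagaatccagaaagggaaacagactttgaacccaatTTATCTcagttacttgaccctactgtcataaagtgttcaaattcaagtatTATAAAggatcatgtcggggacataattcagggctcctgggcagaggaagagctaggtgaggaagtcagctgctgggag
The upstream window holds none of the 5 motifs. The downstream window holds TATAAA 29 bases before the start and AGATAA on the opposite strand 79 bases before it.

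By role, hydrolases and microvillus genes lay mostly below 0, and transporters lay evenly on both sides. Of 11 hydrolases past the filter 2 lay above 0 and 9 below, with a median of -0.14 and a range from -0.69 to 0.13. Of 20 transporters 10 lay above 0 and 10 below, with a median of 0.01 and a range from -0.57 to 0.85. The 6 microvillus genes had a median of -0.17. All hydrolases but Lct, Treh and Mep1a differed by less than the SD between probe sets. These counts take the sign of the brightest probe set, also for Dpp4, Mme, Slc5a1 and Slc7a7, whose direction is not settled. Alpi, counted above 0, lay at -0.0012 under quantile normalization. The hydrolase median was lower than that of the transporters by 0.15 on the log2 scale (-0.15). The transporter median also changed sign with the processing, to -0.053 with the filter at the 75th percentile and to -0.018 under quantile normalization. The hydrolase median ran from -0.15 to -0.14 and the microvillus median from -0.19 to -0.13 over the alternatives. Some alternatives could not move these medians. The filters on the mean and at the 75th percentile, and leaving out possible cross-matches, kept the same genes and probe sets. These counts come from 1 pair of arrays, and the gap between the groups could not be tested.

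**Figure D3:**
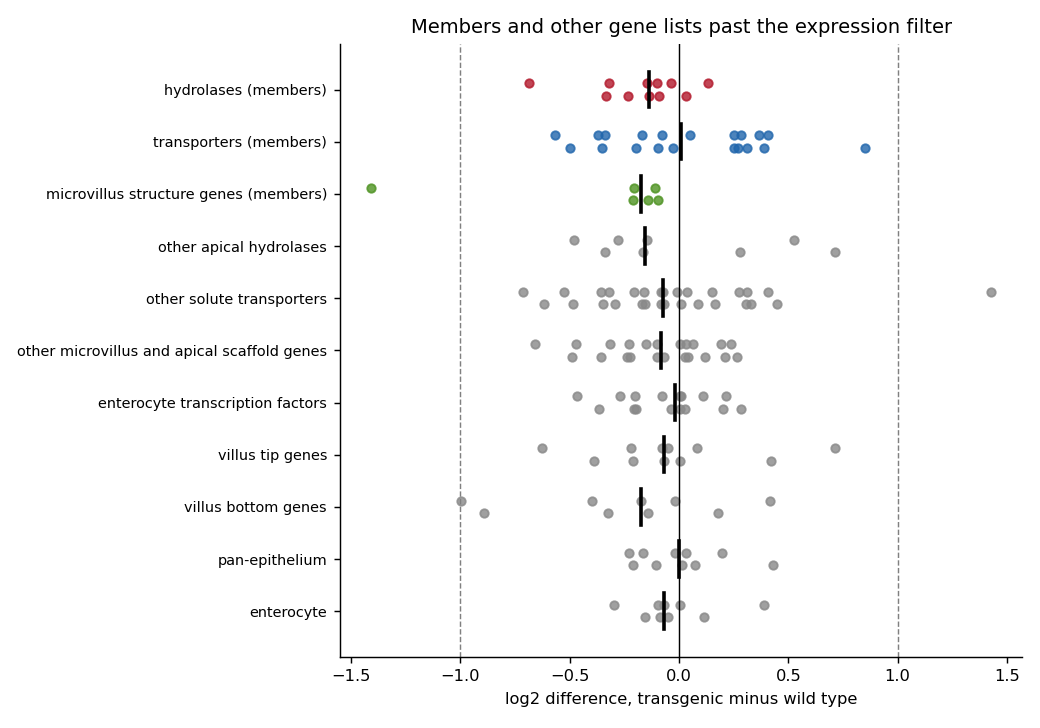
Log2 difference, transgenic minus wild type, of each gene past the filter in the member groups (coloured) and in other lists (grey), with each list's median as a black bar and 2-fold as dashed lines. Each of the 11 lists drawn straddles 0 except the microvillus members, whose values run from -1.41 to -0.10.

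Further genes with the same functions were read from 3 other lists. Among 8 other apical hydrolases past the filter, 3 lay above 0 and 5 below, with a median of -0.15. By 1.3-fold 2 were higher and 1 was lower. Nt5e, the ectonucleotidase CD73, read 1156 in transgenic and 705 in wild-type intestine (0.71). Entpd8, also an ectonucleotidase, read 1183 in transgenic and 822 in wild-type intestine (0.52), and Naaladl1, a peptidase, read 4809.9 and 6712 in the same order (-0.48). A further ectonucleotidase of the list, Enpp3, named after its values were seen, lay at -0.16. Among 29 other solute transporters, 12 lay above 0 and 17 below, with a median of -0.07. By 1.3-fold 3 were higher and 4 lower. The sulfate carrier Slc13a1 alone was past 2-fold (3058 in the transgenic pool against 1135 in the wild-type pool, 1.43), and Slc5a8, Slc5a12 and Slc7a15 lay at -0.71, -0.62 and -0.53. Slc5a8 and Slc5a12 are both sodium-coupled monocarboxylate carriers, and lay on the other side of 0 from Slc16a1. A further monocarboxylate carrier of the list, Slc16a3, named after its values were seen, lay at 0.33, on the same side as Slc16a1. Among 22 other microvillus and apical scaffold genes, 10 lay above 0 and 12 below, with a median of -0.08, unlike the 6 members, all below 0. By 1.3-fold 0 were higher and 3 were lower. These were Mall, a membrane traffic protein (-0.66), Pdzk1, a scaffold that anchors apical carriers (-0.49), and Twf2, an actin-binding protein (-0.47, with its second probe set at 0.21).

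Genes expressed across the epithelium lay evenly on both sides of 0, and most enterocyte markers differed little. Of 10 genes expressed across the epithelium 5 lay above 0 and 5 below, with a median of -0.0015 and a summed intensity of 75236 in transgenic and 77411 in wild-type intestine. The largest differences were 0.43 in Krt18, a keratin, and -0.23 in Cdh1, E-cadherin. Of 9 enterocyte genes of lipid transport and energy supply 3 lay above 0 and 6 below, with a median of -0.07. Among all genes with a mean intensity of at least 1000, 51.7% lay below 0. All 9 but Ckmt1 and Apoc3 differed by less than the SD between probe sets. For comparison, 25 of the 37 members lay below 0, with a median of -0.10. The enterocyte sums were 131589 in transgenic and 135068 in wild-type intestine. The extremes were Ckmt1, a mitochondrial creatine kinase, at 0.39 (0.04 on its second probe set), and Apoc3, an apolipoprotein, at -0.30. The labelled tissue is thus matched by its epithelial and enterocyte markers on both arrays.

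Markers of other cell types are given because the RNA came from whole tissue, and a marker that passed the filter through its higher array alone had to differ. Of 7 tuft cell markers past the filter 5 were higher by 2-fold in the transgenic pool, with sums of 1979.8 in transgenic and 617 in wild-type intestine, and 4 of the 7 passed through the transgenic array alone. Of 6 mast cell markers 4 were higher by 2-fold (sums of 5556 in transgenic and 1035 in wild-type intestine), and 2 of the 6 passed through the transgenic array alone. Of 8 goblet cell markers the 1 higher by 2-fold was also the 1 that passed through the transgenic array alone, and the sums were 92632 in transgenic and 81497 in wild-type intestine. Of 5 Paneth cell markers, all past the filter on both arrays, 2 were higher by 2-fold (sums of 53074 in transgenic and 39436 in wild-type intestine). Of 3 adipocyte markers past the filter 2 were higher by 2-fold, 1 of them through the transgenic array alone. Sums over the 4 adipocyte markers on the arrays, with Lep below the filter, were 992 in transgenic and 570 in wild-type intestine. Of 4 markers of exocrine pancreas past the filter 1 was higher by 2-fold. Of 5 B cell markers 3 were lower by 2-fold (sums of 586 in transgenic and 1137 in wild-type intestine), 2 of them through the wild-type array alone, whereas 0 markers of enteroendocrine cells, T cells, macrophages or smooth muscle were past 2-fold. The part of these cell types in the small differences of brush border genes was not tested.

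Enterocyte regulators and markers of villus position were read as further lists. Of 16 enterocyte transcription factors past the filter 8 lay above 0 and 8 below, with a median of -0.02. The largest were Hnf4g at -0.46 and Cdx2 at -0.37, but other probe sets of both lay above 0 (0.26 and 0.45 for Hnf4g, 0.32 for Cdx2), so no direction is given. Along the villus, enterocytes at the tip and at the bottom use different genes. Of 11 tip genes 4 lay above 0 and 7 below (median -0.07), and 2 were higher and 2 lower by 1.3-fold, with Nt5e and Ada, adenosine deaminase (0.42), on one side and Clca4a (-0.63) and Fos (-0.39) on the other. Of 9 genes of the villus bottom 2 lay above 0 and 7 below (median -0.17), and 3 were lower by 1.3-fold, all of them Reg3 lectins (Reg3b at -0.998, Reg3g at -0.89 and Reg3a at -0.40), and Il18 lay at 0.42. Both villus lists thus held more genes below 0 than above. The share below 0 was 47.6% over all genes, and 51.7% over genes with a mean intensity of at least 1000. The part of villus position in the members' differences was not tested.

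Segment markers bear on these genes because many brush border genes vary along the intestine. Fabp6 and Slc10a2, genes of bile acid uptake that mark the ileum, were below the filter on both arrays. Fabp6 read 13.3 in transgenic and 13.3 in wild-type intestine, and Slc10a2 read 7.73 in transgenic and 8.03 in wild-type intestine. The duodenal Tmprss15 was below it as well. Of 8 proximal markers past the filter 1 was higher and 1 was lower by 1.3-fold (Adh6a at 0.41 and Onecut2 at -0.57), with a median of 0.11. Of 6 distal markers 1 was higher and 1 lower (Slc51b at 0.49 and Cubn, cubilin, which takes up intrinsic factor with its bound cobalamin, at -1.03 and -1.01 on its probe sets), with a median of -0.04. Neither list moved in one direction, and the part of the sampled segment in the members' differences was not tested.

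**Figure D4:**
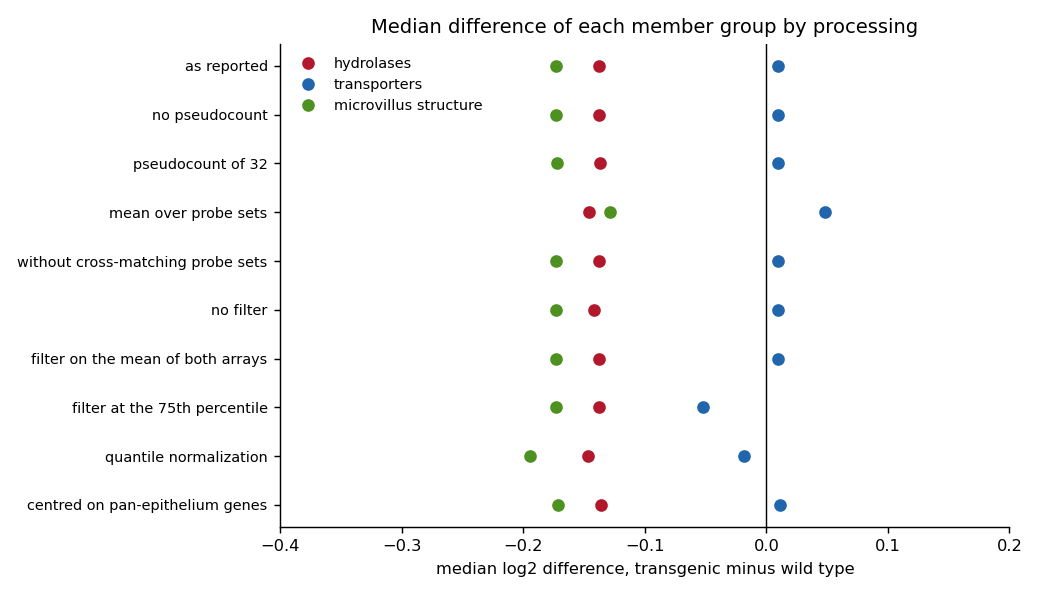
Median log2 difference, transgenic minus wild type, of hydrolases, transporters and microvillus genes as reported and under each of the 9 processing alternatives, with no error bars because there are no replicates. Hydrolase and microvillus medians stay between -0.19 and -0.13, while the transporter median lies on either side of 0, between -0.053 and 0.048.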

How the data were processed

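RNA from 1 pool of 3 mice per group (10 µg of total RNA per the labels' protocols) was hybridised to 2 Affymetrix MOE430 2 arrays. For 45101 probe sets the authors deposited linear intensities, made with RMA, per the submitters' processing notes (version, genome build, chip annotation: not given in the sources used here). RMA equalises the arrays' distributions, so a difference shared by most genes cannot be seen, and detection calls were not used here. Their medians were 78.7 in the transgenic and 78.3 in the wild-type pool.

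Arrays were grouped by source name. From a platform annotation table, 34958 probe sets carried 1 symbol, 932 several and 9211 none. Of a gene's probe sets, the brightest by mean log2(intensity + 1) stood for the gene, and the others served as a check. The filter took the median of all values (an intensity of 78.5). With 1 array per group no test was run, and calls are folds of 2 and 1.3. The number of arrays limits the precision. The members, lists and motifs were chosen with earlier results of these data known. The rule for naming genes took all members and, from each other list, up to 4 genes past 1.3-fold, or the 2 largest where fewer than 2 passed. Fabp6 and Slc10a2 were named after their values were seen. Markers of other cell types are given as counts and sums. The computation was tested on simulated data. The alternatives were pseudocounts of 0 and 32, the mean over probe sets, no probe sets with possible cross-matches, no filter, a filter on the mean of both arrays or at the 75th percentile, quantile normalization, and centring on epithelial genes. Promoters are from RefSeq, GRCm38.p6. Python 3.11.15 with pandas 2.3.3 and numpy 2.4.6 was used.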

Additional observations from a re-analysis of the deposited data

How the results depend on the processing

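The median of all members ran from -0.13 to -0.10 over the 9 alternatives. The medians of the hydrolases, the microvillus genes, the disaccharidases and the amino acid transporters stayed below 0 in each. For these groups the filters on the mean and at the 75th percentile, and leaving out possible cross-matches, kept the same genes and probe sets. Those alternatives could not move their medians. The median of the transporters turned to -0.053 with the filter at the 75th percentile, which keeps 18 of 20 transporters. Under quantile normalization it turned to -0.018. The median of the 20 lies midway between Slc7a7 and Slc2a2, at -0.03 and 0.05 as reported. Under quantile normalization these genes lay at -0.04 and 0.0016, so the sign rests on genes near 0. With the mean over probe sets 2 members were past 2-fold in place of 1, since Slc1a1 reached 1.14 (with 1 of its 3 probe sets past the filter through the transgenic array alone), and 797 genes in all were past 1.3-fold in place of 1274, over 10240 genes in place of 11862. Slc19a3 (0.29 with a pseudocount of 32, 0.37 under quantile normalization) and Slc43a2 (-0.36 with the mean over probe sets) dropped under 1.3-fold, while Slc23a1 (-0.38 with the mean over probe sets) and Treh (-0.38 under quantile normalization) passed it. No paired analysis was possible because each group holds 1 array, and for the same reason no array could be left out. Intensities near the filter, as for Slc19a3 and Slc5a6, are close to background, where differences shrink.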

Other observations

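Divided by the membrane on which they are known to act, a split made after the values were seen, 14 apical transporters ran from -0.37 to 0.85 and 6 basolateral ones from -0.57 to 0.37. Of the apical carriers 8 lay above 0 and 6 below, and of the basolateral ones 2 lay above and 4 below. By 1.3-fold, 3 apical carriers were higher in the transgenic pool (21.4%) and 0 were lower. Of the basolateral carriers 0 were higher by 1.3-fold and 2 were lower (33.3%). Over all genes, 5.5% were higher and 5.24% lower. Of the 5 carriers past 1.3-fold, Slc19a3 on the apical and Slc43a2 on the basolateral side were under it under some alternatives. Just under 1.3-fold lay apical Slc23a1 (-0.37), Slc46a1 (-0.35) and Slc15a1 (-0.34), and basolateral Slc16a1 (0.37). With the mean over probe sets Slc23a1 was lower by 1.3-fold (-0.38), so the split by this cut depends on the processing. Among carriers that are no members, Slc5a8 (-0.71) and Slc5a12 (-0.62), which are apical, lay on the other side of 0 from the 3 apical members higher by 1.3-fold. The sulfate carrier Slc13a1 (1.43), also no member, lay on the same side as these. The 29 other solute transporters were not divided by membrane as a set, so such examples do not check the split. The counts rest on 1 array per group and were not tested.

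By the brightest probe set of each gene, the sulfate carrier Slc13a1 had a larger difference (1.43) than any member carrier, with its second probe set at 0.81. However, Slc1a1 lay at 1.12 and 1.46 on its other probe sets, the latter past the filter through the transgenic array alone. Cubn, which also sits in the brush border, lay at -1.03 and -1.01 on its probe sets, against -1.41 for Tmigd1 on its only one.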
